A study of Mus musculus with 36 samples.

Results

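Cebpd, Saa3, H2-K1 and Rsad2 are 4 genes of the acute phase and interferon responses, followed here with every probe that the array's annotation assigns to them. These were 5 probes of the 20355 on the array and 4 of its 9930 named genes, with 1 probe each for Cebpd, Saa3 and H2-K1 and 2 probes for Rsad2. The genes were chosen from measured values of these same arrays, so their values are a description and carry no test.

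Cebpd encodes a transcription factor of the C/EBP family that is induced by interleukin-6 and interleukin-1, and C/EBP factors act with NF-kB and STAT3 on the promoters of acute phase genes. Saa3 encodes a serum amyloid A protein that is made outside the liver, in fibroblasts and macrophages among other cells. H2-K1 encodes a heavy chain of the classical MHC class I molecules, which present peptides to cytotoxic T cells. Rsad2 encodes viperin, an antiviral enzyme of the interferon response.

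The cells were NIH3T3, an immortalised line of mouse embryonic fibroblasts, transfected with Erbb2 in a tet-off system, in which tetracycline is meant to shut off the transgene. The course comprised 1, 2, 4, 12 and 24 h and 3, 5 and 7 days of tetracycline with 4 arrays each, together with untreated cells, named in the sample labels as the same Erbb2 line. Each dual-colour array set RNA of 1 such sample (channel 1) against RNA of untreated Erbb2 cells (channel 2), so the transgene was common to all 9 groups, and Erbb2 itself was not analysed here. The labels do not say whether the line was 1 clone or whether replicates were separate cultures, so the spread between arrays may be technical. Their protocols also mention organs and a reference pool from 6 control animals, which conflicts with the named sources, and the design text speaks of 2 different untreated lines, so the untreated baseline is not fully settled.

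Every value below is a log2 ratio of channel 1 over channel 2, centred on the median of its array, with the sign turned on the arrays that carried channel 1 in Cy3 (replicates 3 and 4). Positive values are read as more RNA in channel 1, a direction that was assumed, since the labels do not give it. Untreated replicates 1 and 2 were the same values but for a constant of 0.771 and were counted once, which left 3 untreated arrays (1 Cy5, 2 Cy3) and 35 arrays in all. On the 8 arrays of 5 and 7 days the values had slid against the probe rows and were moved back. On 5d replicate 1 they were moved by a further row over the whole array. The middle 50% of values on an array spanned 0.357 to 0.504 log2 units at 1 to 24 h, 0.697 to 1.419 at 3 to 7 days and 0.492 to 0.700 in the untreated arrays. The number of arrays limits the precision.

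Promoters are shown because 4 of the 5 probes had their highest group mean at 5 days. RefSeq entries (build GRCm38.p6) were at hand for 3 of the 4 genes, and Cebpd had none in the table used. Each sequence runs 5′ to 3′ over the 250 bases before the annotated start, in lower case, with motif matches in capitals. All 3 genes lie on the minus strand: Saa3 at chr7:46715677-46715926, H2-K1 at chr17:34000348-34000597 and Rsad2 at chr12:26456453-26456702.
Saa3: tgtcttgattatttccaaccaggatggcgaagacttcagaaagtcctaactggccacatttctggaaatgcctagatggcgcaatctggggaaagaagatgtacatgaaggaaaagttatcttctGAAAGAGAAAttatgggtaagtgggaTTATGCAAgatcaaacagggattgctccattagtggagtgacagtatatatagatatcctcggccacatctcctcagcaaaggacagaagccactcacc
H2-K1: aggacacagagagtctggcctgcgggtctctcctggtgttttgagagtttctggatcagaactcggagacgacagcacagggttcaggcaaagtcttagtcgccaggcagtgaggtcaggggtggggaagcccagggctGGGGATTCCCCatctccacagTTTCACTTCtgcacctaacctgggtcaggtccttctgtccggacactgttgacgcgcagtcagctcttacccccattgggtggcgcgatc
Rsad2: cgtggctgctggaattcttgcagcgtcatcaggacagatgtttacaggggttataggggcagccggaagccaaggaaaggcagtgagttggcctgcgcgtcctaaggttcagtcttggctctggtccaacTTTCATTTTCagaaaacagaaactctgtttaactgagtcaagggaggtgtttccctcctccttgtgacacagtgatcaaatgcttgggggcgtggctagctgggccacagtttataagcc

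Motifs were searched on both strands, and were picked with these sequences in view. Among the promoters of the table, 32841 windows of the same length served as the background. The core of an interferon-stimulated response element was taken as a pair of GAAA with 2 bases between them. The Saa3 window held it as GAAAGAGAAA, 125 to 116 bases before the start. It also held TTATGCAA, a match to the C/EBP-type motif TTNNGCAA, 99 to 92 bases before it. The Rsad2 window held TTTCATTTTC, which is this core on the opposite strand, 120 to 111 bases before the start.

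The H2-K1 window lacked the core but held TTTCACTTC, a match on the opposite strand to the shorter form GAANNGAAA, at 90 to 82 bases. Next to it lay GGGGATTCCC and the overlapping GGGATTCCCC, both matches to the NF-kB consensus, between 111 and 101 bases before the start. The core was present in 2.98% of all windows, GAANNGAAA in 6.31%, the C/EBP-type motif in 9.57% and the NF-kB consensus in 3.9%. The STAT-type motif TTCNNNGAA, present in 7.02% of windows, had no match in the 3 promoters. A match describes letters and is not a measured binding site.

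**Figure D1:**
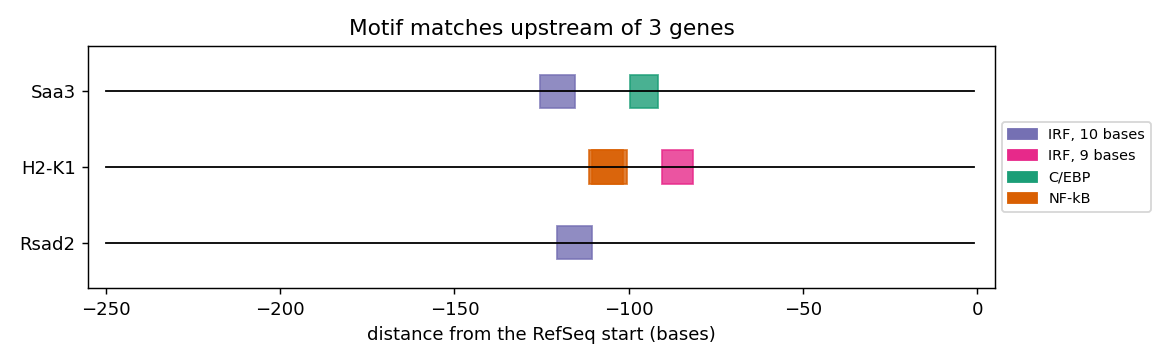
Motif matches in the 250 bases before the RefSeq start of Saa3, H2-K1 and Rsad2, with the distance from the start in bases on the x axis and 1 box per match coloured by motif. The matches of the 3 genes lie between 125 and 82 bases before the start, and the 2 NF-kB matches of H2-K1 overlap.

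Cebpd was highest at 5 days and next highest at 7 days. Its log2 ratios in the untreated arrays were -0.31, 0.03 and -0.08. At 5 days they were 1.85, 1.96, 1.55 and 1.51, and at 7 days 1.10, 1.04, 0.44 and 0.64. Each of these 8 arrays lay above all 3 untreated arrays, and the 5-day arrays lay above all 7-day arrays. The difference from untreated, fitted with a dye effect for the probe, was 1.82 (SE 0.187, n = 4 and 3), a ratio of 3.53, at 5 days and 0.91 (SE 0.187) at 7 days.

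These late Cebpd values depend on the realignment of the rows. The Cebpd value was read 3 rows up from its own row (4 rows on 5d replicate 1), and in the row that bears its name as deposited the difference was -2.03 at 5 days and -0.41 at 7 days. Over the surrounding block of rows, each of the 8 late arrays correlated best with arrays of other times at that displacement, and every array of the other groups at none. The best correlation per late array was low, between 0.0681 and 0.1491. Its margin over the second-best displacement varied, from 0.0681 against 0.0467 on 7d replicate 4 to 0.0953 against 0.0156 on 7d replicate 2. On 5d replicate 1 the further row was applied to the whole array, so the probes of Saa3, H2-K1 and Rsad2 were read off their own rows there too. The checks of the displacement covered only later rows. Whether the further row holds at these probes was not tested, so their values on 5d replicate 1 may be those of neighbouring probes. With the rows as deposited the 5-day differences were 1.87 for Saa3, 1.56 for H2-K1, 0.70 for Rsad2 probe 3904 and -0.46 for probe 2616.

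Before 5 days Cebpd moved within a narrower band. At 2 h its ratios were 0.43, 0.47, 0.38 and 0.14, all above the untreated arrays, and at 4 h 0.12, 0.11, 0.07 and 0.01. At 12 h they were -0.25, -0.48, -0.24 and -0.71, and at 24 h -0.29, -0.76, -0.17 and -0.24, so that all arrays of 12 and 24 h were below 0. At 1 h they ran from -0.81 to -0.02 and at 3 days from -0.02 to 0.15. The order of the group means was 5 days, 7 days, 2 h, 4 h, 3 days, untreated, 24 h, 1 h and 12 h. In that order 5 days did not overlap 7 days and 2 h did not overlap 4 h, while the other neighbours overlapped.

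Saa3 had the largest 5-day difference among the 5 probes. Its untreated arrays read -0.03, 0.03 and -0.10 and its 5-day arrays 1.88, 1.73, 2.96 and 1.67. The 5-day arrays lay above every array of the other groups, and replicate 3 stood apart above the other three. The difference from untreated was 2.18 (SE 0.34, n = 4 and 3), a ratio of 4.52. Of the differences of all 16827 probes tested at 5 days, 99.5% were no larger.

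At 7 days the Saa3 arrays split by dye. The Cy5 arrays read -0.14 and -0.52 and the Cy3 arrays 1.48 and 0.95, with a group difference of 0.56 (SE 0.34), and the group overlapped the untreated arrays. A similar spread was present at 3 days, with -0.23, -0.73, 0.08 and 1.31. Other probes split by dye as well, with the Cy5 arrays above the Cy3 arrays. The Cy5 and Cy3 means of Cebpd were 1.905 and 1.53 at 5 days and 1.07 and 0.539 at 7 days. Those of Rsad2 probe 3904 were 1.133 and 0.516 at 5 days. The part of the dye in these values was not tested. At 2 h Saa3 read 0.26, 0.21, 0.33 and 0.08, just above the untreated arrays, and its groups of 1, 4, 12 and 24 h lay between -0.29 and 0.49. Apart from 5 days, no neighbours in the order of the group means were free of overlap.

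Saa3 belongs to a family of close paralogs, and spotted cDNA can cross-hybridise. Saa4, a constitutive serum amyloid A, was measured by 2 probes with a 5-day gene mean of 1.28 against -0.998 in the untreated arrays. Saa1, a liver acute phase protein, had a 5-day difference of 0.96 with an SE of 1.095. Its largest difference was -2.76 (SE 1.173), at 12 h. Neither gene passed the test across genes at any time (limma, 5-day adjusted p = 0.4839 for Saa4 and 0.8669 for Saa1).

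H2-K1 was high at 5 days with a wide spread. Its untreated arrays read 0.18, -0.26 and 0.01, and its 5-day arrays 1.03, 2.02, 3.21 and 1.01. All 4 late arrays exceeded the untreated ones, and replicate 3 was the highest. The difference was 1.82 (SE 0.479, n = 4 and 3), a ratio of 3.52, and without 5d replicate 3 it was 1.29. At 7 days 2 arrays had a value, 1.95 and 0.35, and the time was not tested.

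At the earlier times H2-K1 overlapped the untreated arrays throughout. It ran from -0.06 to 0.78 at 2 h and from -0.69 to 0.70 at 24 h. At 3 days the 3 arrays with a value read 0.42, 1.15 and -0.73. Every pair of neighbours in the order of its 9 group means overlapped, the 5-day and 7-day groups included. Class I heavy chains are near-identical over long stretches, so the H2-K1 probe may also read its relatives.

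The 2 probes for Rsad2 disagreed, and they are kept apart. Probe 3904 read -0.18, -0.09 and -0.06 in the untreated arrays and 0.99, 1.28, 0.55 and 0.48 at 5 days. All 5-day arrays were above the untreated ones, with a difference of 0.90 (SE 0.176, n = 4 and 3) and a ratio of 1.86. At 7 days it read 0.60, 0.25, -0.18 and 0.29, which overlapped untreated. At 1 h it read 0.17, 0.25, 0.21 and 0.48 and at 2 h 0.20, 0.75, 0.23 and 0.23. These early arrays also lay above the 3 untreated arrays, and the 2 h group overlapped the 5-day group.

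Probe 2616 was not higher at 5 days. It read 0.05, 0.53 and -0.51 in the untreated arrays. At 5 days it read 0.44, -2.18 and 0.67 on the 3 arrays with a value after the rows were moved. The 5-day difference was -0.38 (SE 0.46), and it was 0.47 without replicate 3. With the rows as deposited, where 5d replicate 1 was not moved, it was -0.46 (SE 0.425). At 7 days it read -0.22, -0.21, -1.89 and -0.77, a difference of -0.87 (SE 0.43). Its highest group mean was at 1 h, and all neighbours in the order of its means overlapped.

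**Figure D2:**
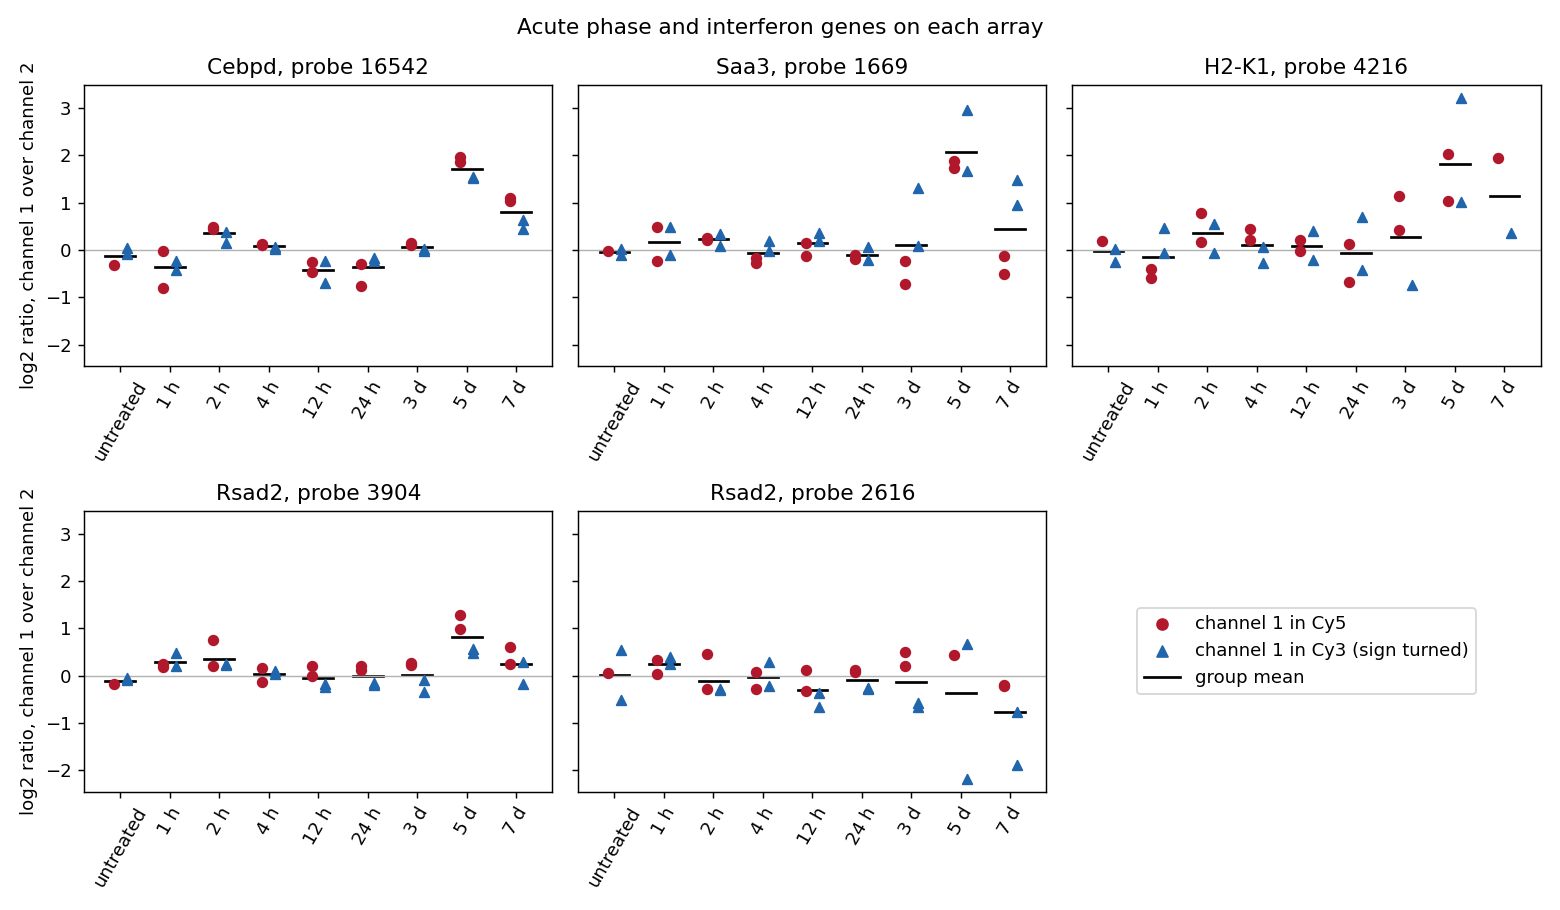
Log2 ratio of channel 1 over channel 2 (y axis) on each array of the 9 groups (x axis) for the 5 probes, with circles for arrays with channel 1 in Cy5, triangles for Cy3 after the sign was turned, and bars for group means. Cebpd, Saa3, H2-K1 and Rsad2 probe 3904 are above the untreated arrays on all 4 arrays of 5 days, while Rsad2 probe 2616 is spread from -2.18 to 0.67; before turning, the Cy3 values of these 4 probes at 5 days were below 0.

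With the deposited sign, the dyes opposed each other at 5 days on 4 of the 5 probes. The centred Cy3 values as deposited were -1.55 and -1.51 for Cebpd, -2.96 and -1.67 for Saa3, -3.21 and -1.01 for H2-K1 and -0.55 and -0.48 for Rsad2 probe 3904. The Cy5 values of these probes were all above 0. If the Cy3 arrays were not turned, the 5-day difference would be -0.38 for Saa3 and -0.55 for H2-K1, and 0.21 for Cebpd and 0.26 for Rsad2 probe 3904. The size of all 4 differences, and the sign of 2 of them, therefore rests on the turning.

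In the fit across all probes (limma, Benjamini-Hochberg adjusted p under 0.05), 2.13% of the 16827 probes tested were called at 5 days in either direction and 1.18% were higher. Of the 5 probes, 4 were among the higher ones, which the choice of genes had fixed. H2-K1 was no longer among them with a replicate block in place of the dye effect, without centring and with quantile normalization. It was also lost without any 1 of the untreated arrays, and it remained in 19 of 35 fits that each left out 1 array. Rsad2 probe 3904 was lost without centring too. With the rows as deposited, Saa3 alone was still called at 5 days. With unturned Cy3 arrays, or in a fit of the 2 compared groups alone, none of the 5 probes was called at 5 days. At 7 days 1.06% of all probes were called, 0.579% as higher, and among the 4 probes tested it was Cebpd. That call was lost without centring, with quantile normalization and with array weights. It was also lost in the fit of the 2 groups alone, with the rows as deposited and with unturned Cy3 arrays. From 1 h to 3 days limma called none of the 5, where it called 0.197% of all probes at 1 h, 0.535% at 2 h, 0.193% at 4 h, 0.0165% at 12 h, 0.0276% at 24 h and 0.737% at 3 days. In groups that did not overlap with the untreated arrays, the 5 probes counted 4 at 5 days, where 4.72% of all probes were free of overlap and higher. The counts were 3 at 2 h (6.71%), 1 at 1 h (3.85%) and, with H2-K1 on 2 arrays, 2 at 7 days (3.78%).

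**Figure D3:**
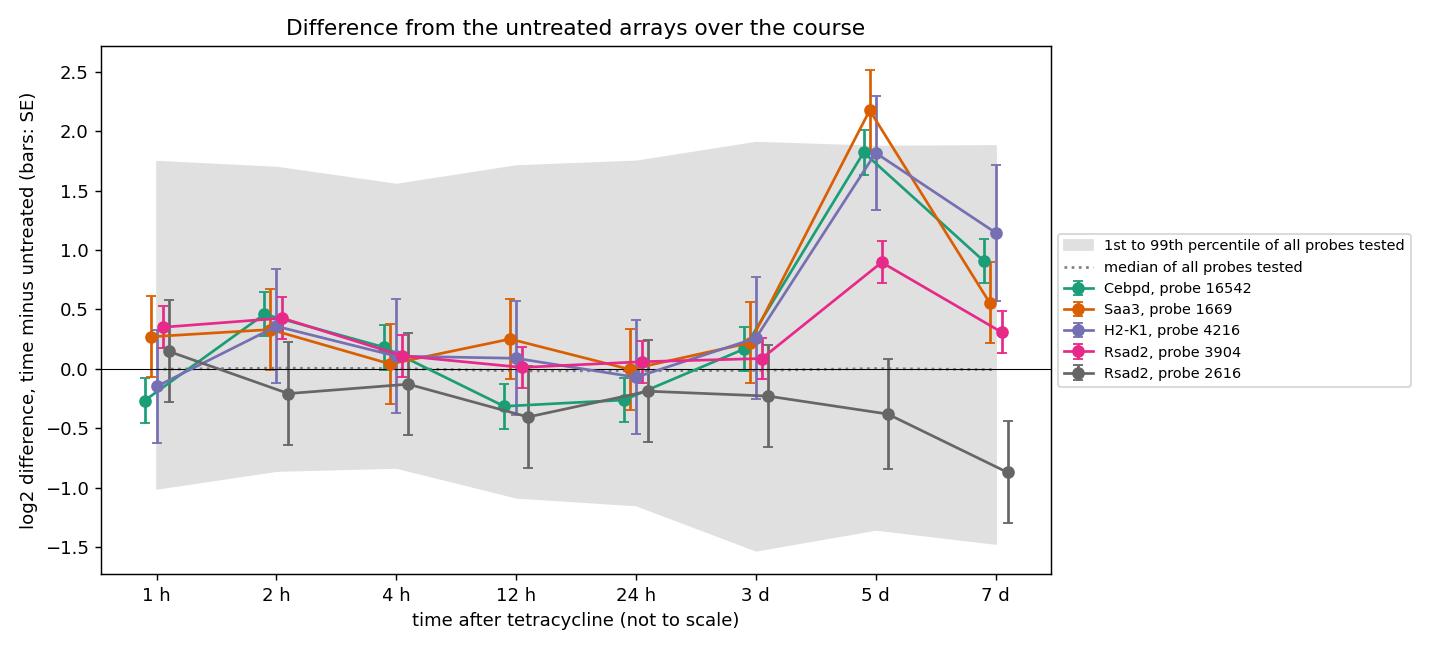
Log2 difference from the untreated arrays at each time (y axis, bars are SE) for the 5 probes, with the 1st to 99th percentile of all probes tested in grey; the times on the x axis are not to scale. At 5 days Saa3 (2.18) lies above the grey band, Cebpd and H2-K1 (1.82 each) lie near its edge and Rsad2 probe 3904 (0.90) lies inside it; without turning the Cy3 arrays Saa3 and H2-K1 would be below 0.

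The probes of other genes that followed each probe most closely were named by Pearson's r over the arrays, after the dye effect was removed. For Cebpd these were Grsf1, an RNA-binding protein of mitochondria (r = 0.898), Faah, a fatty acid amide hydrolase (0.875), and Pigr, the polymeric immunoglobulin receptor (0.863), over 35 arrays. Pigr also followed H2-K1 (0.775, 32 arrays), as did Cebpd itself (0.778) and the transcription factor Runx1 (0.776). Rsad2 probe 3904 was followed by Grsf1 (0.804), the haem synthesis enzyme Ppox (0.803) and the DNA methyltransferase Dnmt1 (0.780), over 35 arrays. For Saa3 they were Map2k2, a kinase that activates ERK (0.807), the aminotransferase Agxt2 (0.805) and the myosin light chain kinase Mylk (0.800), over 34 or 35 arrays. Rsad2 probe 2616 was closest to Slc6a20b (0.713), Cpn1 (0.695) and Apoh (0.694), over 34 arrays. These arrays share the 5-day group. Without its arrays the r of Cebpd was 0.153 with Saa3 (0.707 with them), 0.657 with H2-K1 (0.778) and 0.415 with Rsad2 probe 3904 (0.747).

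The acute phase and C/EBP genes around Cebpd and Saa3 gave no call. Genes were tested on the mean of their probes, and 1.61% of 8675 genes were called at 5 days and 1.07% of 8508 at 7 days. At the earlier times these shares were 0.239% at 1 h, 0.549% at 2 h, 0.268% at 4 h, 0.0218% at 12 h, 0.0219% at 24 h and 0.5% at 3 days, and no gene of the lists was called there. Of the 12 acute phase proteins on the array, limma called none at any time. At 5 days 1 of 11 tested had an unadjusted p under 0.05 and at 7 days 2 of 10. Their median difference at 5 days was 0.07, against 0.04 over all genes. Fgb, a fibrinogen chain, had a 5-day difference of 1.65 (SE 1.41), and Itih4, an inhibitor heavy chain of plasma, had 1.49 at 3 days. The 4 other C/EBP factors measured, Cebpa, Cebpg, Cebpe and Ddit3, had no call and no unadjusted p under 0.05, and their 5-day differences lay between -0.03 and 0.25.

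Among the genes of interleukin and NF-kB signalling, 1 of 15 tested was called at 5 days and at 7 days. It was Il6st, the gp130 receptor subunit that passes on the signals of interleukin-6 and related cytokines. Its gene mean rose by 0.90 (SE 0.177, adjusted p = 0.004421) at 5 days and by 1.13 (adjusted p = 0.0005411) at 7 days. Tested singly, neither probe was called at 5 days (adjusted p = 0.0539 for probe 15601 and 0.3958 for probe 2060), and at 7 days probe 15601 was (adjusted p = 0.01374). Probe 15601 read 0.30, 0.46 and -1.20 in the untreated arrays, 0.55, 0.84, 1.93 and 1.10 at 5 days and 1.47, 1.58, 1.59 and 1.36 at 7 days. Probe 2060 read -0.17, 0.43 and 0.41 untreated, 0.76, 1.03, 0.54 and 0.63 at 5 days and 0.40, 1.08, 0.81 and 0.93 at 7 days. For probe 15601 every late array lay above the untreated ones, and for probe 2060 all but 7d replicate 1 did. Without untreated replicate 4, the low array of probe 15601, the 5-day difference was 0.67 and was no longer called (adjusted p = 0.09069). Both calls also ended without centring (0.54 at 5 days) and with quantile normalization (0.51). With quantile normalization Il6st was instead called as lower at 1 h (-1.21), 2 h (-0.85) and 4 h (-1.07). Array weights and the fit against 0 also called it as lower at 1 h and 4 h. In the main fit the 1 h differences of its probes were -0.63 (probe 2060) and -0.86 (probe 15601), neither called. With the rows as deposited the differences were -0.04 at 5 days and 0.42 at 7 days, neither called, and the sign turned at both times if the Cy3 arrays were left unturned. In a fit of the 2 groups alone, which called no probe of the array, the differences were 0.91 and 1.12.

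Other members of that list missed the test. At 5 days 5 of its 15 tested genes, Il6st included, had an unadjusted p under 0.05 (limma), and at 7 days 2 of 15. Over all genes this share was 11% at 5 days and 11% at 7 days. Il1b, the cytokine interleukin-1 beta, had a 5-day difference of 1.21 (adjusted p = 0.2875). Nfkbib, an inhibitor of NF-kB, had 2.11 at 3 days (adjusted p = 0.1435), and Ccl7, a monocyte chemokine, had 1.43 at 3 days. Il6 had 2.18 at 4 h with an SE of 1.493. The list's median at 5 days was 0.20.

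The interferon genes around Rsad2 gave no call. The list of interferon ligands, receptors and factors had no ligand on the array. Of its receptors and factors, 0 of 9 tested at 5 days passed (limma), and 1 had an unadjusted p under 0.05. At 7 days 0 of 8 passed, and 3 had an unadjusted p under 0.05. The 5-day median was 0.41, against 0.04 for all genes. Irf1, a transcription factor induced by interferon gamma, had 1.92 at 7 days (SE 0.594, adjusted p = 0.1374). Stat2, which carries type I interferon signals, had 0.89 at 7 days, and Irf7, the factor that amplifies them, had -0.75. Ifngr2, a chain of the interferon gamma receptor, had -0.68 at 5 days (adjusted p = 0.08004).

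Of 55 listed interferon-stimulated genes, 29 were on the array, the genes described here left aside. Of those tested, 0 of 23 passed at 5 days and 0 of 22 at 7 days (limma), with 1 and 2 genes at an unadjusted p under 0.05. The median differences were 0.01 and -0.13. Among genes and times with enough values to be tested, those with the largest difference were Parp14 (-1.93 at 3 days), Ifi35 (1.79 at 1 h), the RNA-editing enzyme Adar (-1.08 at 7 days) and the galectin Lgals9 (0.97 at 7 days). None of them passed. Ifi35 had 3.52 at 5 days and 2.85 at 7 days and Ifi203 had -2.68 at 7 days, each on too few arrays to be tested.

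The MHC class I list around H2-K1 had 1 called gene, of 11 tested at 5 days and 8 at 7 days. It was Calr, calreticulin, a chaperone of the endoplasmic reticulum that helps to load class I molecules and also folds many other glycoproteins. Its probe read 0.10, -0.10 and 0.30 in the untreated arrays, 1.07, 1.07, 1.08 and 1.08 at 5 days and 1.08, 0.95, 0.91 and 1.21 at 7 days. All late arrays lay above the untreated ones. So did its arrays of 2 h, between 0.74 and 0.80, of 4 h, between 0.59 and 1.02, and of 12 h, between 0.34 and 0.58. Of all probes, 6.71% were free of overlap and higher at 2 h, 4.72% at 5 days and 3.78% at 7 days. The difference at 2 h was 0.70, at 4 h 0.68 and at 12 h 0.37, none called. It was 1.00 (SE 0.24, adjusted p = 0.02517) at 5 days and 0.96 (adjusted p = 0.0429) at 7 days. The 5-day call was lost without 5d replicate 1 or 2, or untreated replicate 3 or 4, and it held in 31 of 35 fits that each left out 1 array. The 7-day call held in 10 of those 35 fits, and it was also lost with no dye effect.

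Both late Calr calls ended without centring (0.64 at 5 days) and with quantile normalization (0.69), where Calr was instead called at 2 h (0.87) and 4 h (1.11). The rows as deposited gave -0.19 at 5 days, and unturned Cy3 arrays made both late differences negative. In the fit of the 2 groups alone the differences were 0.97 and 0.94, with no probe of the array called.

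The other class I genes were not called. B2m, the light chain that pairs with H2-K1, had a 5-day difference of -0.38 (SE 0.275), and at 7 days 0.54 on too few arrays to be tested. It is named for this pairing. The immunoproteasome subunit Psmb9 had 0.84 at 5 days, Psme2 had -1.65 at 3 days, Psmb10 had -0.78 at 4 h and the non-classical class I gene H2-T23 had 1.23 at 12 h. The list's median was -0.02 at 5 days.

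Over the 6 lists and 8 times, 4 of 616 gene tests were called, all as higher, and 46 (7.47%) had an unadjusted p under 0.05, against 7.23% of the tests of all genes. At 5 and at 7 days alone that share was 11% of all genes. Without centring the arrays none of the called tests was higher, and with quantile normalization 2 of 7 were. The macrophage markers, of which 5 were tested, had no call at 5 days, a median of -0.02 and a range from -0.62 to 0.08. The fibroblast markers had 2 higher and 2 lower of 10. These ratios give no absolute level, and fewer cells of a type cannot be told apart from less RNA per cell.

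**Figure D4:**
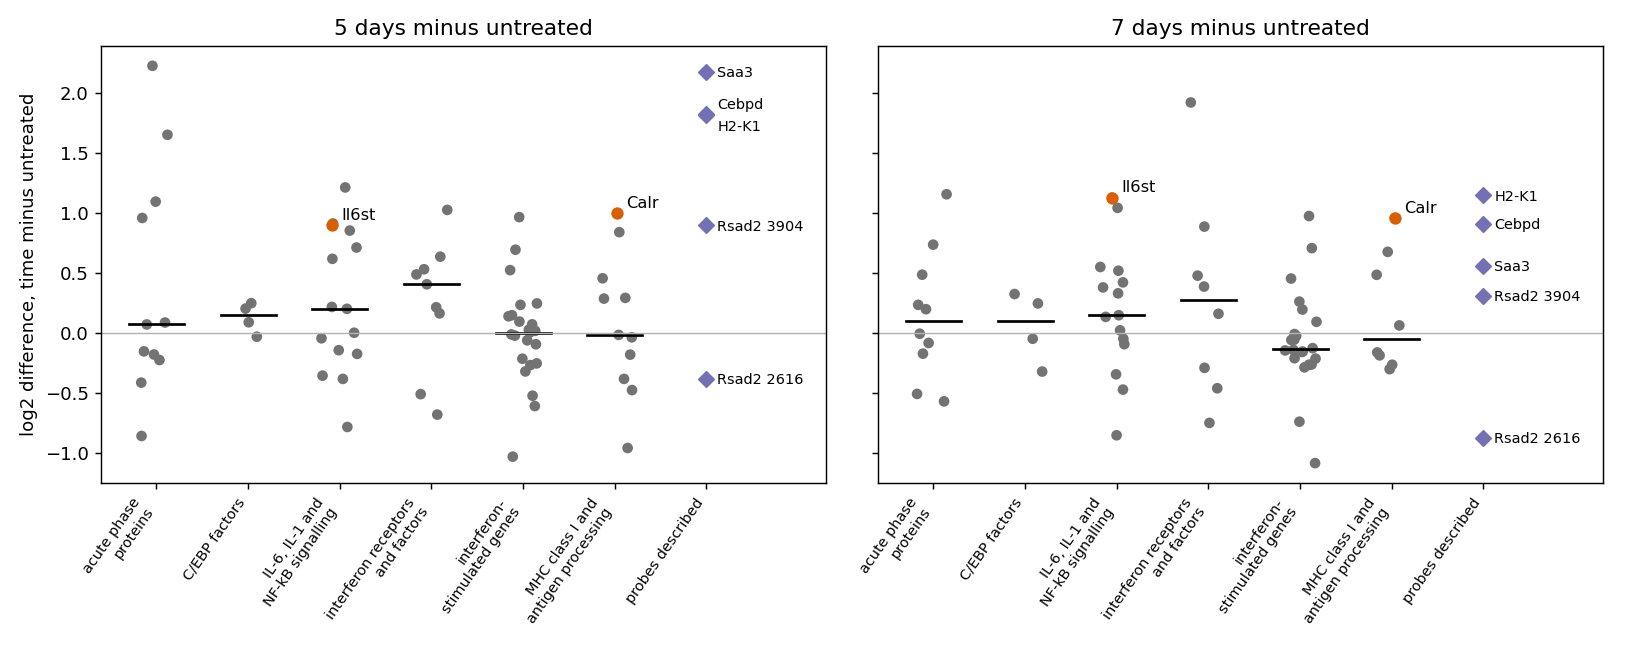
Log2 difference from untreated (y axis) at 5 and 7 days for each tested gene of the 6 lists (x axis; bars are list medians, orange marks adjusted p under 0.05) beside the 5 probes described (diamonds). Il6st and Calr are the called list genes, at 0.90 and 1.00 at 5 days, and both are below 0 if the Cy3 arrays are not turned; H2-K1 at 7 days rests on 2 arrays.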

How the data were processed

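The deposited values are log2 ratios of dual-colour cDNA arrays, per the labels. Software, background correction, normalization and which channel is the numerator are not given in the sources used here. Of 36 columns, 35 were distinct. Values above 12 (2739) were dropped, arrays were centred on their medians, and the sign was turned where channel 1 was in Cy3. On the 5-day and 7-day arrays, rows were moved back past 4 slide points by a hidden Markov alignment to arrays of other times, and 1288 probes around these points or at the end were left out at those times. Probe symbols came from the platform annotation (14030 probes with 1 symbol, 5 with several, 6320 with none).

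All arrays entered 1 limma 3.58.1 model (R 4.3.3) with group means and, per probe, a common dye term, then eBayes. At least 3 values per compared group were required. Benjamini-Hochberg adjustment ran over all probes, or over all genes for lists (probes averaged), and adjusted p under 0.05 was called. All comparisons share the untreated arrays. Beyond the 4 genes, the text names list genes called at any time, up to 4 further per list with the largest absolute difference, and the 3 probes most like each probe (at least 30 arrays). The genes and lists were chosen with earlier results of these data known. The scripts were tested on simulated data.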

Additional observations from a re-analysis of the deposited data

Results flagged for a closer look

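Among 37 sets of 4 arrays of 1 probe and group, 3 had an array far from the rest, where chance gives about 1 in 20. These were Saa3 at 5d replicate 3 (2.96), Rsad2 probe 3904 at 2h replicate 2 (0.75) and Rsad2 probe 2616 at 2h replicate 1 (0.45). Between neighbouring times, Cebpd was on opposite sides of the untreated mean with all arrays on 2 occasions: its mean was lower at 12 h than at 4 h (-0.50), and higher at 3 days than at 24 h (0.43). These differences between times were not tested.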

How the results depend on the processing

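Outside the 2 settings named next, the 5-day difference ran from 1.47 to 1.91 for Cebpd, 1.80 to 2.40 for Saa3, 1.29 to 2.10 for H2-K1 and 0.54 to 0.98 for Rsad2 probe 3904. With the Cy3 arrays not turned, the 5-day value became -0.38 for Saa3, -0.55 for H2-K1, -0.155 for Il6st and -0.182 for Calr, and at 7 days -0.05 for Il6st and -0.198 for Calr. With the rows as deposited, Cebpd was -2.03 at 5 days and -0.41 at 7 days. Il6st was -0.037 at 5 days and 0.42 at 7 days, and Calr -0.192 at 5 days. There the 5-day difference was 1.87 for Saa3, 1.56 for H2-K1, 0.70 for Rsad2 probe 3904 and -0.46 for probe 2616. Of the 5 probes only Saa3 was still called at 5 days. Of 784 alternative values of the 5 probes, 711 moved by less than 1 SD between arrays and 73 by more. In 81 the sign changed. Of the differences called in the fit across all probes, 4 changed sign. They were Saa3 and H2-K1 at 5 days without turning, and Cebpd at 5 and 7 days with the rows as deposited. Not centring shifted the median of all probes by -0.356 at 5 days and -0.392 at 7 days; it and quantile normalization ended the late calls of Il6st and Calr. The fit of the 2 groups alone called no probe at all, with differences of 0.91 and 1.12 for Il6st and 0.97 and 0.94 for Calr. The 2 calls in the acute phase, C/EBP and interleukin lists became 5 with quantile normalization or a dye effect for each group, 19 with array weights, 13 against 0, 6 without turning, 4 with untreated replicates 1 and 2 apart, and 0 with the 2 groups alone or the rows as deposited. The 2 in the interferon and MHC lists became 6 with a dye effect for each group, 1 with none, 10 with array weights, 14 against 0, 8 without turning, 4 with the untreated replicates apart or with probes complete on every array, and 0 with the 2 groups alone or the rows as deposited. Leaving out 1 array gave 2 to 14 (14 without untreated replicate 1) and 0 to 9 (9 without untreated replicate 1, 0 without untreated replicate 3 or 4 or 5d replicate 2, 6 without 3d replicate 2 or 4). The cause of these shifts was not tested. Over all probes the 359 calls at 5 days ran from 0 to 1013 over the settings. The replicate block in place of the dye effect left 2 and 2 calls, 3 of the 5 probes called at 5 days in place of 4 (H2-K1 lost) and a Cebpd value of 1.84 at 5 days; samples sharing a number had a median correlation of -0.056, against 0.033 for other pairs, so the numbers were not taken as pairs.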

Other observations

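A few list genes near the threshold at 5 days, singled out after their values were seen, passed it under a dye effect for each group. Isg20, an interferon-induced exonuclease, had 0.97 (limma, adjusted p = 0.07857) and 1.00 under that setting (adjusted p = 0.002472). Cxcl1, a neutrophil chemokine and NF-kB target, had 0.71 (adjusted p = 0.09978) and 0.75 (adjusted p = 0.02791). Ifngr2 had -0.52 under that setting (adjusted p = 0.01216). Vcam1, an adhesion molecule and NF-kB target, had -0.78 (adjusted p = 0.1266) and -0.68 (adjusted p = 0.029). At 7 days Pml, of the interferon-stimulated list, had -0.74 (limma, adjusted p = 0.05047). Under a dye effect for each group it had -0.785 at 7 days (adjusted p = 0.02245). Lcn2, an acute phase iron carrier, had 1.09 at 5 days (adjusted p = 0.1857). It was called as higher only with array weights, at 1, 2, 4, 12 and 24 h and 5 and 7 days. Over all probes, array weights gave 933 calls at 1 h, 542 at 24 h and 668 at 5 days, against 36, 5 and 359 without them.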
